A study of Mus musculus with 5 samples.

Results

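Cultured Hepa1-6 cells, a mouse hepatoma line, were compared with liver sinusoidal endothelial cells (LSECs), the cells that line the blood channels of the liver, on Agilent 60-mer mouse arrays read in 1 colour (Cy3). Of the 5 arrays of the series, 1 held cultured Hepa1-6 RNA and 1 held LSEC RNA, and the other 3 held tumor endothelial cells (TECs). The Hepa1-6 sample was labelled as strain C57L and as cultured cells, and the methods describe growth of the line in serum-containing medium. The LSEC sample came from the liver of C57BL/6 mice. The study used female mice of 6 weeks and isolated its endothelial cells with magnetic beads. Its protocol, collagenase digestion and selection with CD31 beads, is given for tumor tissue, and neither the digestion of liver nor the number of livers is described for the LSECs. No gene deletion, transgene or drug treatment was labelled for either sample. The comparison therefore sets a tumor line kept in culture against cells taken directly from an organ, and cell type, strain, culture and slide all differ between the 2 arrays and cannot be told apart.

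Spots of 1 probe were averaged, quantile normalization of the log2 signals was run over the pair of arrays, and probes flagged well above background on either array were kept. This left 33258 of 56605 probes and 21970 of 37074 gene names, and each gene was read at its brightest kept probe. A gene was described when its ratio of cultured Hepa1-6 over LSEC was 8-fold or more in either direction. By this rule 2266 genes (10.3% of the genes kept) were higher in cultured Hepa1-6 and 2611 genes (11.9%) were lower, and 17093 lay within 8-fold. With 1 array a side there is no replicate check and no p-value, so every ratio below describes these 2 arrays and not the spread between cultures or animals. Spots repeated within an array had a median coefficient of variation of 2.62% on the Hepa1-6 array and 2.73% on the LSEC array, which covers the measurement on 1 array only.

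Hepatoma cells descend from hepatocytes, the epithelial cells that make plasma proteins and carry out most of the metabolism of the liver, and they often switch on fetal liver genes such as alpha-fetoprotein. LSECs are fenestrated endothelial cells that clear waste from blood through scavenger and lectin receptors and that supply hepatocytes with Wnt and BMP signals. Kupffer cells are macrophages that sit inside the same sinusoids, so that endothelium prepared from liver can carry their RNA.

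Genes of liver and blood cells other than endothelium were measured on the LSEC array, and they come before the comparison because many of them count as genes lower in cultured Hepa1-6. All 24 measured Kupffer cell and macrophage genes were well above background on the LSEC array, where together they made up 1.14% of the summed signal of all probes, against 0.0121% on the Hepa1-6 array. Their defining member Clec4f, a Kupffer cell lectin, had a log2 signal of 17.25 on the LSEC array and 3.04 on the Hepa1-6 array. Adgre1, which encodes the macrophage antigen F4/80, had 14.86 on the LSEC array and 3.71 on the Hepa1-6 array. Both signals on the Hepa1-6 array were not well above background, which is called dim in what follows. The red cell and platelet list of 12 genes made up 0.275% of the LSEC signal, and Hba-a1, an alpha-globin gene with a near-identical copy, had a log2 signal of 17.94 there and 7.33 on the Hepa1-6 array. Across the 7 lists of other liver and blood cells, which include 49 plasma protein genes and 45 enzyme genes of the hepatocyte, the lineage of the hepatoma, 185 of 189 genes kept were well above background on the LSEC array and 74 on the Hepa1-6 array, and 103 were at least 8-fold lower and 10 at least 8-fold higher in cultured Hepa1-6. Genes were kept for a signal on either array, and of all genes kept 92.1% were well above background on the LSEC array and 77.4% on the Hepa1-6 array. In bulk RNA of this kind, fewer cells of a type and less RNA per cell cannot be told apart, and the part of these cells in the comparison was not tested.

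**Figure D1:**
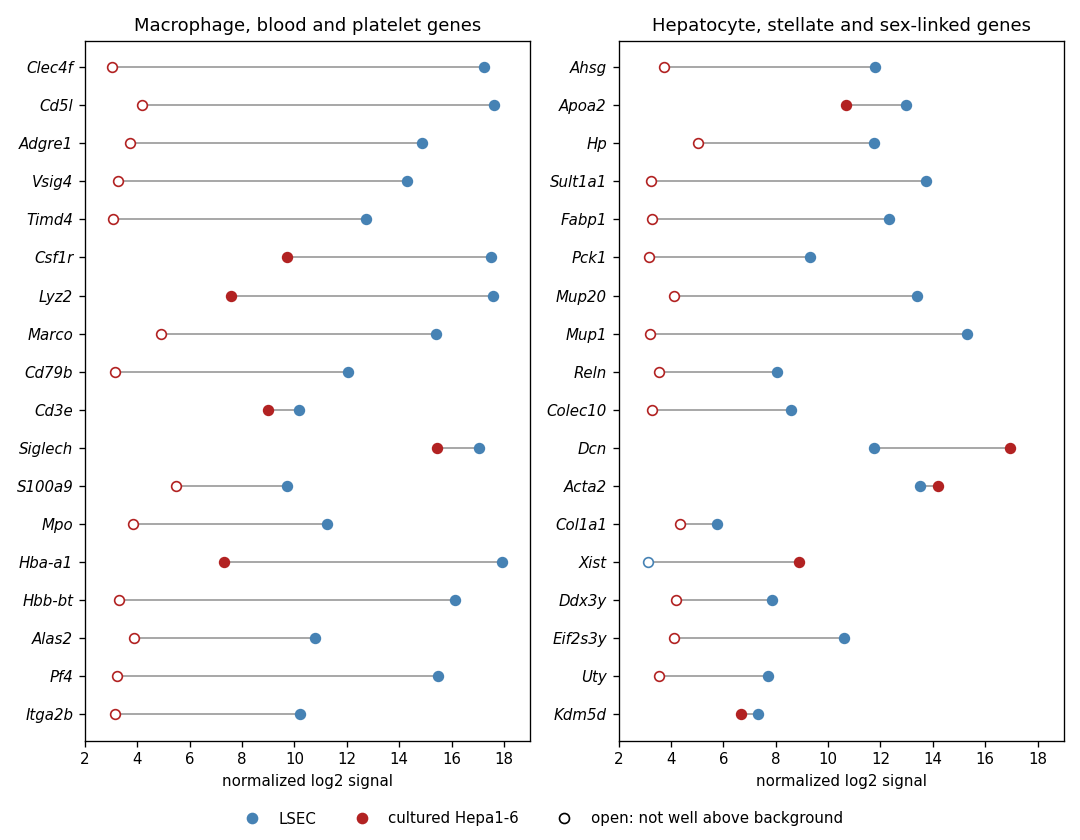
Normalized log2 signal (x axis) of genes of other cell types and of sex-linked genes, with the LSEC array in blue, the cultured Hepa1-6 array in red and open circles for a signal not well above background, 1 array each. Clec4f stood at 17.25 on the LSEC array and 3.04 on the Hepa1-6 array, Siglech and Acta2 were far above background on both, and the Y-linked Eif2s3y and the X-linked Xist lay on opposite sides.

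Hepatocyte genes were also present on the LSEC array. All 49 plasma protein genes kept were well above background there, against 24 on the Hepa1-6 array. Of the defining stellate cell and fibroblast genes, Dcn, which encodes the matrix proteoglycan decorin, had a log2 signal of 11.74 on the LSEC array and 16.94 on the Hepa1-6 array, and Des and Lrat were not well above background on either. Reln, also a defining gene, went the other way, with a log2 ratio of -4.51. Of the 25 genes kept of this list, 2 were higher and 9 were lower by 8-fold. On the LSEC array 24 of them were well above background, against 8 on the Hepa1-6 array. Siglech, a plasmacytoid dendritic cell marker, had a log2 signal of 17.06 on the LSEC array and 15.43 on the Hepa1-6 array, so this probe did not separate the cultured line from liver cells. Slc10a1, a bile salt transporter of hepatocytes, behaved alike, with a log2 signal of 18.20 on the LSEC array and 17.96 on the Hepa1-6 array at its brightest probe and a log2 ratio of -2.96 at a second probe.

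Sex-linked genes were read because the methods name female mice. The Y-linked Eif2s3y, a translation factor gene, had a log2 signal of 10.62 on the LSEC array, and Ddx3y, an RNA helicase gene, had 7.87, both well above background. Xist, the RNA that coats the inactive X chromosome of females, had 3.13 (dim) there. On the Hepa1-6 array Xist had a log2 signal of 8.90, while Eif2s3y had 4.12 and Ddx3y had 4.19, both dim. The LSEC array therefore carried Y-linked signal and no detectable Xist signal at this probe, which is not what the stated sex of the mice would give, and the reason was not tested.

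The promoters of 3 genes that stood higher in cultured Hepa1-6 are shown because their lists share short motifs. Sequences are from RefSeq on GRCm38.p6, 150 bases up to the transcript start, 5′ to 3′ on the strand of the gene. Capitals mark the letters of the motifs searched on both strands, which were the CHR element TTTGAA and the CCAAT box in the mitotic genes Cdk1 and Cdc20 and the E2F motif TTTNNCGC and the CCAAT box in the replication gene Mcm6.
Cdk1, chr10:69352913-69353062, minus strand: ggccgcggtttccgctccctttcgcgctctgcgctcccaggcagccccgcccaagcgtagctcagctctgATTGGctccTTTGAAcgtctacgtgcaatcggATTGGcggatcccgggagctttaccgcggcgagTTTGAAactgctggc
Cdc20, chr4:118437344-118437493, minus strand: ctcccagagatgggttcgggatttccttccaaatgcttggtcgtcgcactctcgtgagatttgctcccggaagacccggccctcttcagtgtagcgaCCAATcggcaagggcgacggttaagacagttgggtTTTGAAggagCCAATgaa
Mcm6, chr1:128359706-128359855, minus strand: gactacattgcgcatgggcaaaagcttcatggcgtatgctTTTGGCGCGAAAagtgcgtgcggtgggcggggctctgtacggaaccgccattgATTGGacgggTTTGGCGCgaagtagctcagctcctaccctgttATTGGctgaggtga

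Positions are those of the first base counted from the transcript start. In Cdk1 the CHR letters began at -71 and -15 and CCAAT boxes at -80 and -48. In Mcm6 the E2F letters began at -110, -106 and -47, the first pair overlapping. Promoter records of 300 bases, from 250 before to 50 after the start, were found for 1337 of the 2266 higher genes and 1607 of the 2611 lower genes. CHR letters were in 74.4% of 43 promoters of the mitosis and spindle list and in 17.9% of all 32851 promoters. CCAAT boxes were in 74.4% and 37.4%. E2F letters were in 39% of 41 promoters of the DNA replication list and in 5.17% of all promoters. Over all genes higher in cultured Hepa1-6 the shares were 18.4% for CHR and 6.84% for E2F, and over all genes kept they were 13.7% and 7.19%. Further motifs searched included the TATA box TATAAA, in 30.2% of 43 plasma protein promoters against 13.6% of all. The ETS motif CAGGAAGT was in 2 of 37 pan-endothelial promoters (5.41%), against 3.33% of all promoters. It was in 1 of 32 promoters of LSEC identity genes (3.12%) and in 0 of 26 promoters of endothelial transcription factors. A match of letters is a description of the window and not a binding site.

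**Figure D2:**
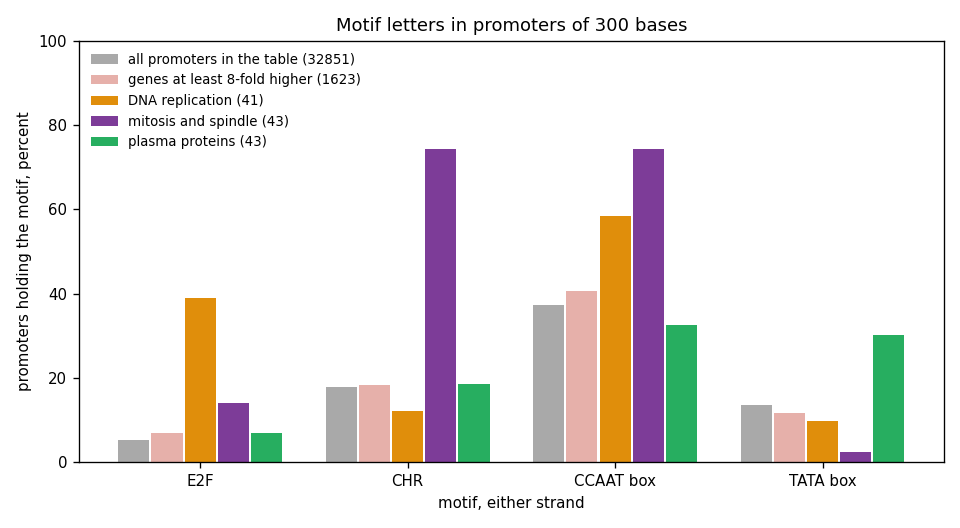
Share of promoters in percent (y axis) that hold the letters of each motif on either strand (x axis), for all promoters of the table, the genes higher in cultured Hepa1-6 and 3 gene lists, with the number of promoters in the legend. CHR letters reached 74.4% in the mitosis list against 17.9% in all promoters, and E2F letters 39% in the replication list against 5.17%.

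Fetal liver and hepatoma genes were read first, as the identity check of the line. Afp, alpha-fetoprotein (probe at chr5:90937781-90937840 on mm9), had a log2 signal of 8.01 on the LSEC array and 16.11 on the Hepa1-6 array, a 275-fold difference. Gpc3, the heparan sulfate proteoglycan glypican-3, had a log2 signal of 5.61 on the LSEC array and 9.77 on the Hepa1-6 array, 17.9-fold higher. The other fetal genes divided. Igf2bp1 and Igf2bp3, which encode RNA-binding proteins of fetal tissue, were at least 298-fold and 211-fold higher in cultured Hepa1-6. Here and below "at least" marks a gene that was not well above background on the dimmer array, where the lowest signal well above background stands in for the unmeasured level. Tff3, a secreted trefoil factor, was at least 426-fold higher, from a log2 signal of 3.70 to 13.31. H19 and Igf2, the imprinted pair most often tied to fetal liver growth, were both near the floor, with H19 at a log2 signal of 5.20 on the LSEC array and 4.79 on the Hepa1-6 array and Igf2 at 5.88 on the LSEC array with a log2 ratio of -0.88. Dlk1, the remaining defining gene, was not well above background on either array. The imprinted growth inhibitor Cdkn1c was lower in cultured Hepa1-6 by at least 129-fold, from a log2 signal of 13.03 to 3.12. Mest and Plagl1, further imprinted genes, were lower by at least 22.6-fold and 46.5-fold. In all, 8 of the 27 measured genes of this list were higher by 8-fold and 6 were lower, with a median log2 ratio of 0.97 against -0.01 over all genes kept.

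Liver transcription factors were higher in cultured Hepa1-6 in most of the core members. Foxa2, a forkhead factor that opens liver chromatin, had a log2 signal of 5.30 on the LSEC array and 13.38 on the Hepa1-6 array, 272-fold higher. Hnf4a, the nuclear receptor that governs hepatocyte genes, had a log2 signal of 8.68 and 13.81, 35.0-fold higher. Foxa3 was at least 47.7-fold higher. Cebpa, a factor of mature hepatocytes, went the other way, with a log2 signal of 11.30 on the LSEC array and 8.33 on the Hepa1-6 array, 7.85-fold lower and thus just inside 8-fold. Nr1i3, the xenobiotic receptor CAR, was lower by at least 12.9-fold. Of the 18 measured factors, 8 were higher and 3 were lower by 8-fold.

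The products of mature hepatocytes did not follow the factors. Alb, serum albumin, had a log2 signal of 13.27 on the LSEC array and 14.21 on the Hepa1-6 array, a difference of 1.91-fold. Fgb, a fibrinogen chain, was 5.75-fold higher in cultured Hepa1-6. Rbp4, the retinol carrier, was 40.3-fold higher and Itih2, a hyaluronan-linking inhibitor chain, 78.2-fold higher. Of the 49 genes kept 11 had a positive ratio. Ttr, the thyroid hormone carrier transthyretin, had a log2 signal of 9.52 on the LSEC array and 3.18 (dim) on the Hepa1-6 array, lower by at least 11.4-fold. Ahsg, the glycoprotein fetuin-A, was lower by at least 55.6-fold. Apoc1, an apolipoprotein, was 216-fold lower and measured on both arrays. Among 49 plasma protein genes 4 were higher and 24 were lower by 8-fold, with a median log2 ratio of -2.99, or -1.28 when unmeasured levels were set to their bound.

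Metabolic enzymes of the hepatocyte were mostly at background in the line. Cyp2e1, an ethanol-metabolizing cytochrome P450, had a log2 signal of 11.10 on the LSEC array and 3.09 on the Hepa1-6 array, lower by at least 34-fold. Fabp1, the fatty acid carrier of hepatocytes, was lower by at least 80.2-fold and Sult1a1, a sulfotransferase, by at least 210-fold. Pck1, the control enzyme of gluconeogenesis, was lower by at least 9.80-fold. Cps1, the first enzyme of the urea cycle, had a log2 signal of 4.93 on the LSEC array and 3.18 on the Hepa1-6 array, too close to the floor for a fold. Abcc2, the canalicular export pump, was the opposite case, at least 180-fold higher with a log2 signal of 12.07 in cultured Hepa1-6. Cth, which makes cysteine, was 11.9-fold higher. In total 3 of 45 measured enzymes were higher and 17 were lower, and 20 were well above background on the Hepa1-6 array against 43 on the LSEC array.

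A block of neighbouring genes added to this pattern. The longest run of genes on 1 side of the 8-fold line, 17 genes on chr4:59969824-61713730 of mm9, was lower in cultured Hepa1-6, and 11 of its genes carry Mup names, after the major urinary proteins, pheromone carriers secreted by hepatocytes. Of these, 2 (Mup-ps12 and Mup-ps16) are named as pseudogenes. The log2 signals of the 11 Mup genes ran from 7.65 to 16.15 on the LSEC array, and 0 of the 11 were well above background on the Hepa1-6 array. Mup1 had a log2 signal of 15.31 on the LSEC array and 3.21 on the Hepa1-6 array. The Mup genes are near-identical copies, so the probes may read one another and their values are not separate measurements. On chromosome 12, 8 Serpina3 genes, a family of protease inhibitors, were lower together, and 3 of them were still well above background in the cultured cells.

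Epithelial genes had the highest median ratio of the lists. Krt8 and Krt18, the keratin pair of simple epithelia, had log2 signals of 8.69 and 10.18 on the LSEC array and 15.25 and 17.72 on the Hepa1-6 array, 94.5-fold and 186-fold higher. Krt20, a keratin of intestinal epithelium, was at least 709-fold higher, from a log2 signal of 3.17 to 14.04. Vil1, the microvillus protein villin, was at least 386-fold higher. Cgn, the tight junction protein cingulin, was 204-fold higher and measured on both arrays. Cdh1, E-cadherin, was not among them. Its log2 signal was 6.04 on the LSEC array and 3.30 (dim) on the Hepa1-6 array. Cdh2, N-cadherin, was 85.7-fold higher in cultured Hepa1-6, from 6.93 to 13.35. Of 23 measured genes of keratins and junctions 13 were higher and 1 was lower by 8-fold, with a median log2 ratio of 5.15.

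Genes of bile duct and progenitor cells were partly on. Sox9, a progenitor transcription factor, had a log2 signal of 3.79 on the LSEC array and 9.70 on the Hepa1-6 array, at least 35.0-fold higher. Krt7, a duct keratin, was at least 104-fold higher and Lgr5, an R-spondin receptor, at least 52.4-fold. The duct keratin Krt19 was at a log2 signal of 4.23 (dim) in the line, and the surface protein gene Epcam was not well above background on either array. Of 13 measured genes 8 were higher and none was lower by 8-fold. Wnt pathway targets were divided, with 6 higher and 1 lower by 8-fold of 17. Their ratios were positive in 9 and negative in 8, with a median log2 ratio of 0.97 against -0.01 over all genes kept. Among the higher genes were Axin2, a feedback inhibitor, at least 42.8-fold higher, and Sp5, a Wnt-induced zinc finger factor, at least 512-fold higher from a log2 signal of 3.31 to 13.57. The lower gene was Cyp2e1, with a log2 ratio of -8.01 when its dim signal was taken as read.

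**Figure D3:**
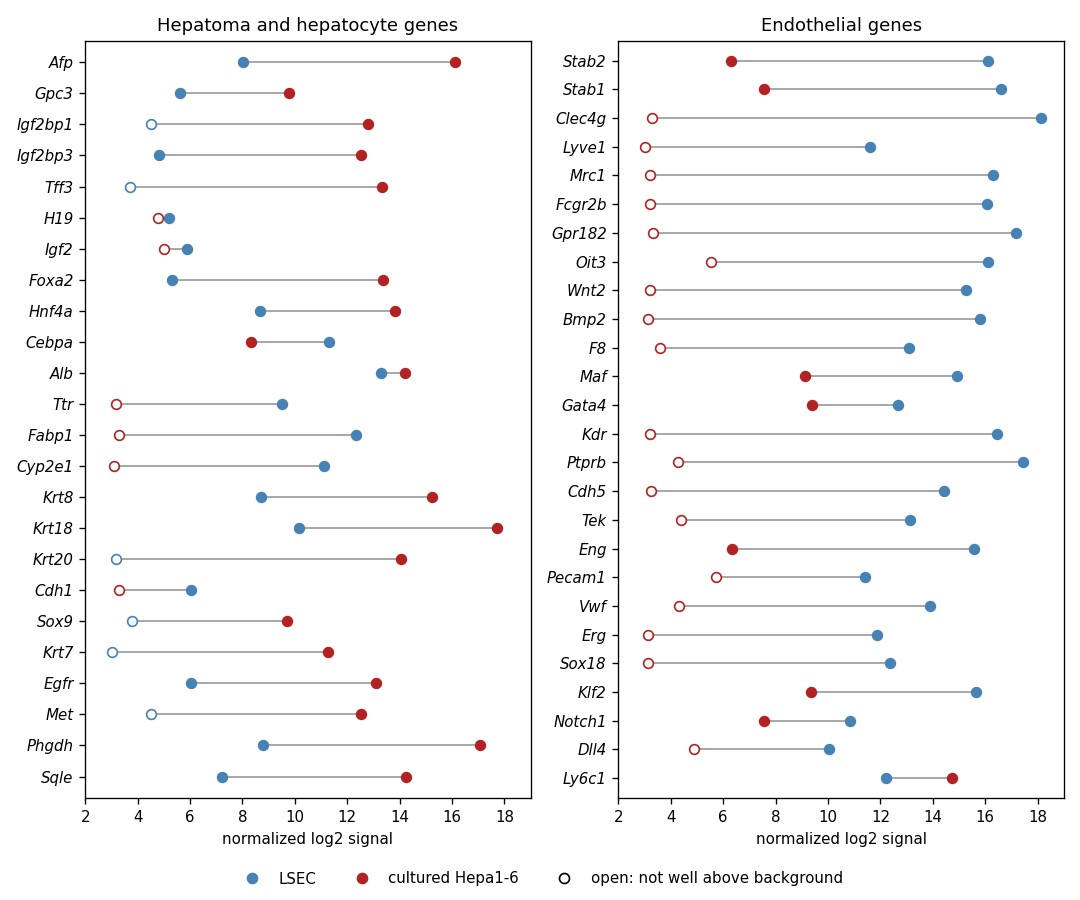
Normalized log2 signal (x axis) of hepatoma and hepatocyte genes on the left and endothelial genes on the right, with LSEC in blue, cultured Hepa1-6 in red and open circles for a signal not well above background, 1 array each. Afp, Krt18 and Foxa2 stood higher in red, Ttr, Fabp1 and Cyp2e1 higher in blue, and on the right every gene shown except Ly6c1 stood higher in blue.

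Receptors for growth factors differed member by member. Egfr, the receptor of epidermal growth factor, had a log2 signal of 6.05 on the LSEC array and 13.10 on the Hepa1-6 array, 132-fold higher, with 4 of 4 probes in the same direction. Met, the receptor of hepatocyte growth factor, had a log2 signal of 4.52 (dim) on the LSEC array and 12.53 on the Hepa1-6 array, at least 248-fold higher. Hgf, its ligand, lay on the LSEC side, lower in cultured Hepa1-6 by at least 8.45-fold. Areg, an EGFR ligand, was 77.4-fold higher in the line. Igfbp1, a secreted binder of insulin-like growth factors, was at least 1745-fold higher, from a log2 signal of 4.12 to 15.34. Fgfr4, the bile acid signal receptor of hepatocytes, was 7.72-fold higher and Vegfa, the main angiogenic ligand, was level at a log2 signal of 8.93 on the LSEC array and 8.88 on the Hepa1-6 array. Over the 27 measured members 6 were higher and 3 lower by 8-fold, with a median log2 ratio of 0.14. Of all genes kept 10.3% were higher and 11.9% were lower, so the lower count was near the share over all genes.

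Genes of mitosis were higher in cultured Hepa1-6 almost throughout. All 50 measured members had a positive ratio and 43 were at least 8-fold higher, 40 of them well above background on both arrays, with a median log2 ratio of 4.60. The median log2 signal of the list was 7.84 on the LSEC array and 12.57 on the Hepa1-6 array. Cdk1, the kinase that starts mitosis, had a log2 signal of 7.62 on the LSEC array and 12.75 on the Hepa1-6 array, 34.9-fold higher. Plk1, a further mitotic kinase, was 44.9-fold higher and Ccnb1, cyclin B1, 50.9-fold higher. Mki67, the proliferation antigen Ki-67, had the smallest difference among the defining members, 9.63-fold, from a log2 signal of 10.69 to 13.95. Mybl2, the transcription factor B-Myb, a partner of the complex that binds CHR elements, was 72.0-fold higher. Hmmr, a spindle protein gene, showed how far probes of 1 gene can part, with log2 ratios from 0.03 to 5.83 over 3 probes.

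DNA replication genes showed smaller differences. Of 44 measured members 24 were at least 8-fold higher, none was lower by 8-fold, and the median log2 ratio was 3.11. Pcna, the sliding clamp of the replication fork, had a log2 signal of 13.68 on the LSEC array and 14.48 on the Hepa1-6 array, only 1.74-fold apart. Rrm2, the regulated subunit of ribonucleotide reductase, was 18.7-fold higher and Exo1, a nuclease of mismatch repair, 78.9-fold higher. Mcm2 and Mcm5, subunits of the replicative helicase, were 7.56-fold and 6.57-fold higher, just under the 8-fold line. The sole member with a negative ratio was Slbp, which binds histone mRNA, 3.43-fold lower.

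**Figure D4:**
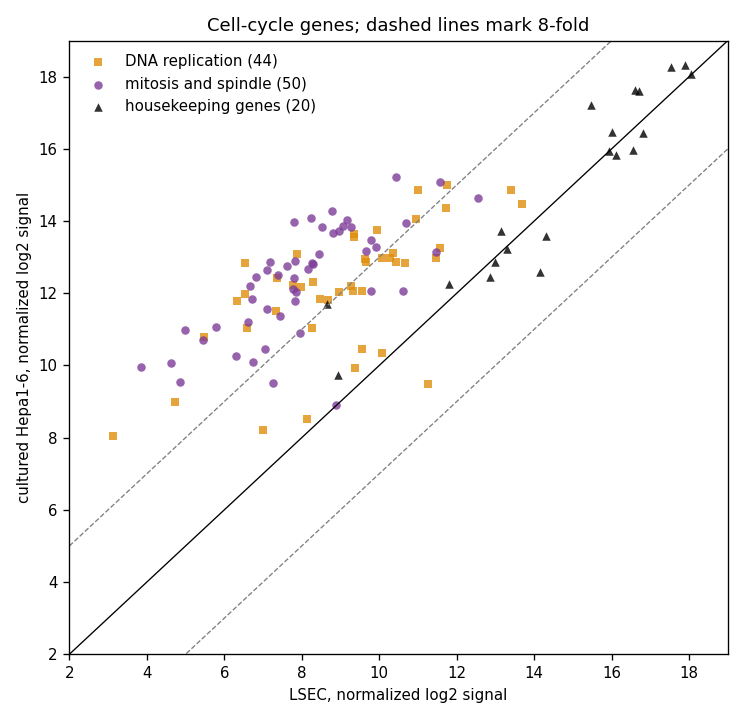
Normalized log2 signal on the LSEC array (x axis) against cultured Hepa1-6 (y axis) for genes of DNA replication (squares), mitosis (circles) and housekeeping (triangles), 1 array each, with the solid line at equal signal and dashed lines at 8-fold. All 50 mitotic genes lay above the solid line and 43 above the upper dashed line, while 19 of 20 housekeeping genes lay between the dashed lines.

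Cell cycle inhibitors and D-type cyclins gave mixed values. Ccnd2, cyclin D2, had a log2 signal of 15.15 on the LSEC array and 5.11 (dim) on the Hepa1-6 array, lower by at least 563-fold. Ccnd1, cyclin D1, was 3.57-fold higher in the line. Cdkn2b and Cdkn2a, neighbouring inhibitor genes that many tumor lines have lost, were 15.0-fold and 4.99-fold higher in cultured Hepa1-6 and well above background on both arrays. Housekeeping genes gave a median log2 ratio of 0.23, with Actb, cytoskeletal actin, 1.02-fold and Gapdh, a glycolytic enzyme, 1.87-fold higher in cultured Hepa1-6. The exception past 8-fold was Tfrc, the transferrin receptor, which was 8.28-fold higher.

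Synthesis pathways lay on the hepatoma side as well. Phgdh, the first enzyme of serine synthesis, had a log2 signal of 8.80 on the LSEC array and 17.07 on the Hepa1-6 array, 310-fold higher, and Psat1, the next enzyme, was 108-fold higher. Mthfd2, a mitochondrial folate enzyme, was 38.5-fold higher. Of 29 measured genes of nucleotide, serine and one-carbon synthesis 13 were higher and none was lower by 8-fold, with a median log2 ratio of 2.85. In sterol and fatty acid synthesis 11 of 26 were higher and none was lower. Sqle, squalene epoxidase, was 132-fold higher and Me1, the malic enzyme that supplies NADPH, 86.5-fold. Fasn, fatty acid synthase, was 12.8-fold higher. Ribosome biogenesis genes had positive ratios in 28 of 28 members at a median of 2.64, and 5 passed 8-fold. Myc itself, the factor known to drive them, was 3.12-fold higher.

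Glycolysis and xenobiotic genes differed little as groups. Ldha, lactate dehydrogenase A, was 1.86-fold higher and Hk2, hexokinase 2, 3.85-fold higher in cultured Hepa1-6, whereas Ldhb and Hk3, the sister enzymes, were lower by at least 170-fold and 157-fold. Of 27 measured glycolytic genes 2 were higher and 4 were lower, with a median log2 ratio of 0.77. The Ah receptor gene Ahr was 4.68-fold lower in Hepa1-6, its target Cyp1a1, a cytochrome P450, 2.40-fold higher, and Nqo1, an NRF2 target, 1.89-fold lower. In that list of 27 genes 1 was higher and 3 were lower. For both lists the shares over all genes kept were 10.3% higher and 11.9% lower.

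Some of the largest ratios on the hepatoma side belonged to genes outside these lists. Sprr1a, a cornified envelope protein of squamous epithelium (probe at chr3:92287955-92288014 on mm9), had a log2 signal of 3.20 (dim) on the LSEC array and 17.32 on the Hepa1-6 array, at least 6856-fold higher. Near it on chromosome 3, 8 Lce1 genes, which encode late cornified envelope proteins, formed the longest run on the higher side, with log2 signals from 7.28 to 13.78 in cultured Hepa1-6 and 1 of the 8 well above background on the LSEC array. Lce1 genes are close copies and may share signal. Ankrd1, an ankyrin repeat protein induced by YAP signalling, was at least 761-fold higher, and Csn3, the milk protein kappa-casein, at least 531-fold. Among genes well above background on both arrays Perp, a desmosomal p53 target, was 737-fold higher, with a log2 signal of 5.30 on the LSEC array and 14.83 on the Hepa1-6 array. Cyp2s1, an epithelial cytochrome P450, was 615-fold higher and Psrc1, a spindle-associated protein gene, 414-fold higher. With dim signals taken as read, 320 genes had a ratio of 64-fold or more and 832 a ratio as far on the other side.

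LSEC receptors made up the other side. Clec4g, the sinusoidal lectin LSECtin (probe at chr8:3716182-3716241 on mm9), had a log2 signal of 18.14 on the LSEC array and 3.28 (dim) on the Hepa1-6 array, at least 4474-fold lower in cultured Hepa1-6 and the largest bound on this side. Stab2, the hyaluronan scavenger receptor stabilin-2, had a log2 signal of 16.11 on the LSEC array and 6.31 on the Hepa1-6 array, 891-fold lower with 5 of 5 probes in the same direction. Stab1, its homologue, was 527-fold lower. Mrc1, the mannose receptor, was lower by at least 1253-fold and Fcgr2b, the inhibitory Fc receptor of sinusoids, by at least 1057-fold. Lyve1, a hyaluronan receptor, was lower by at least 47.8-fold, from a log2 signal of 11.59. All 23 measured receptors of this list had negative ratios and 17 passed 8-fold, with a median of -8.57, or -6.12 with unmeasured levels at their bound. Macrophages also express Mrc1, Stab1 and Fcgr2b, and the part of the macrophage signal above in these values was not tested.

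Angiocrine and identity genes of LSECs followed. Wnt2, a Wnt ligand that sinusoidal cells send to hepatocytes, had a log2 signal of 15.29 on the LSEC array and 3.20 on the Hepa1-6 array, lower by at least 619-fold. Bmp2, which controls hepcidin in hepatocytes, was lower by at least 893-fold, Gpr182, an atypical chemokine receptor, by at least 2266-fold and Oit3, a gene of sinusoidal endothelium in liver, by at least 1097-fold. F8, coagulation factor VIII, which is made by LSECs and not by hepatocytes, was lower by at least 135-fold. In cultured Hepa1-6, 15 of the 36 genes kept were well above background. The transcription factor gene Maf was 55.2-fold lower at a log2 signal of 9.13 in cultured Hepa1-6, and Gata4, the factor that specifies sinusoidal endothelium and is also expressed in endoderm, was 9.54-fold lower at 9.41. Of 36 members 32 were at least 8-fold lower and none was higher by 8-fold.

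Genes of all endothelium were next. Kdr, the main VEGF receptor, had a log2 signal of 16.45 on the LSEC array and 3.20 on the Hepa1-6 array, lower by at least 1383-fold. Ptprb, an endothelial phosphatase, was lower by at least 2731-fold, Cdh5, VE-cadherin, by at least 338-fold, and the angiopoietin receptor genes Tek and Tie1 by at least 140-fold and 105-fold. Pecam1, which encodes CD31, had a log2 signal of 11.40 on the LSEC array and 5.72 (dim) on the Hepa1-6 array, lower by at least 41.8-fold. CD31 was the antigen of the bead protocol, so that value is no finding. Eng, a TGF-beta coreceptor, was 604-fold lower and Gpihbp1, the lipase anchor of capillaries, 1428-fold lower, both well above background on both arrays. The list held 39 of 47 genes lower by 8-fold and none higher. Positive ratios were found for Ly6c1, a surface antigen, at 5.78-fold, for Procr, the protein C receptor, at 4.22-fold, and for Nrp2, a semaphorin coreceptor, at 1.21-fold, although the probes of Nrp2 ranged from -5.85 to 0.28 on the log2 ratio.

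Endothelial transcription factors were lower in the same direction at smaller sizes. The ETS factors Erg and Fli1 were lower by at least 58.3-fold and 55.7-fold, with log2 signals of 11.88 and 11.81 on the LSEC array and 3.11 and 3.15 on the Hepa1-6 array. Sox18, an endothelial SOX factor, was lower by at least 81.0-fold, and the shear-responsive factor Klf2 was 79.9-fold lower and still measured at 9.35. Of 32 measured factors 18 were lower by 8-fold and none was higher. In the Notch and BMP list 9 of 21 were lower and 1 was higher. Notch4, the endothelial Notch receptor, was 110-fold lower and Notch1 9.70-fold lower, whereas the ligand gene Jag1 was 8.64-fold higher in cultured Hepa1-6. Together the 4 endothelial lists held 137 measured genes, of which 105 were at least 8-fold lower and none was 8-fold higher. Of the 137, all were well above background on the LSEC array and 58 on the Hepa1-6 array. Genes were kept for a signal on either array, so a gene dim on the Hepa1-6 array entered only through the LSEC array. Of all genes kept, 11.9% were at least 8-fold lower, 92.1% were well above background on the LSEC array and 77.4% on the Hepa1-6 array.

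**Figure D5:**
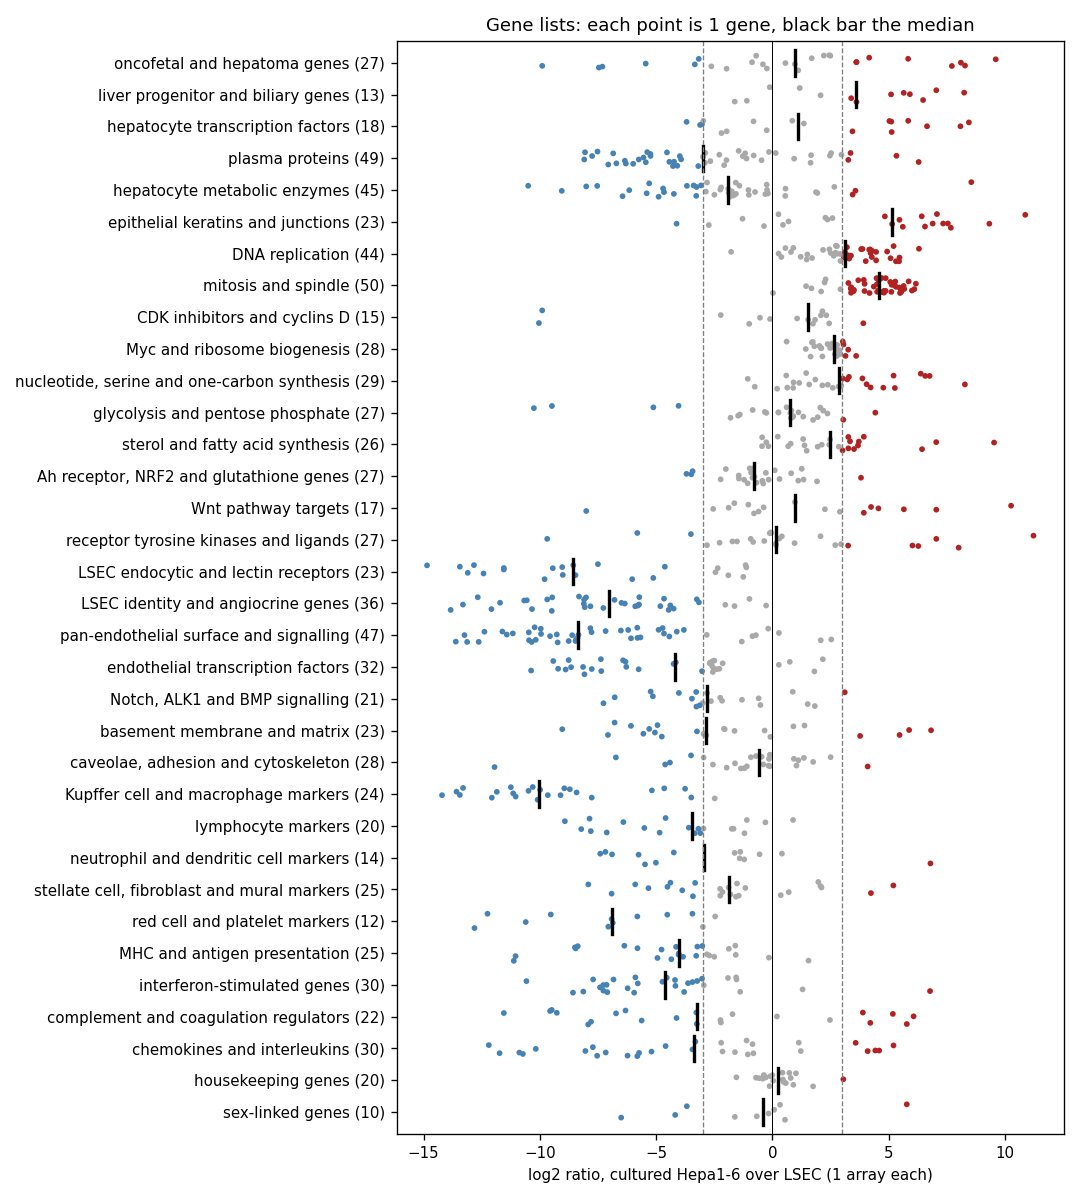
Log2 ratio of cultured Hepa1-6 over LSEC (x axis) for every measured gene of each list (y axis), 1 point a gene and a black bar at the median of the list, from 1 array a side. Medians ran from 5.15 for epithelial genes and 4.60 for mitosis to -8.57 for LSEC receptors and -10.05 for Kupffer cell genes. Dim signals were taken as read. With unmeasured levels at their bound the medians were -6.12 for LSEC receptors and -8.715 for Kupffer cell genes.

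Matrix genes were split between the arrays. Fn1, fibronectin, had a log2 signal of 10.81 on the LSEC array and 16.69 on the Hepa1-6 array, 58.8-fold higher, and the laminin chain Lamb1 was 44.3-fold higher. The endothelial laminin chain Lama4 was lower by at least 69.6-fold and the collagen IV chain Col4a1 7.19-fold lower. Of 23 members 4 were higher and 10 were lower. Cav1, caveolin-1, had a low log2 signal of 6.17 on the LSEC array and 3.21 on the Hepa1-6 array at its brightest probe. Vcam1, a leukocyte adhesion receptor, was 21.2-fold lower. Genes of clotting and fibrinolysis separated as well, with the plasminogen activator Plat 54.9-fold and tissue factor, F3, 14.8-fold higher in the line, and Vwf, the platelet tether of endothelium, lower by at least 233-fold. Of 22 measured genes of that list 5 were higher and 12 were lower, with a median log2 ratio of -3.26.

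Antigen presentation and interferon genes were lower in cultured Hepa1-6. H2-Ab1, an MHC class II chain, had a log2 signal of 16.69 on the LSEC array and 5.64 (dim) on the Hepa1-6 array, lower by at least 1637-fold. Cd74, the class II invariant chain, was lower by at least 1031-fold. Class I genes were lower but measured on both arrays, with H2-K1 16.4-fold and B2m, the light chain of class I, 5.67-fold lower. Irf7, an interferon-induced factor, was 210-fold lower and Isg15, a ubiquitin-like protein, 61.7-fold lower. Oas1a, an RNA sensor of the same list, was the exception at 110-fold higher, from a log2 signal of 5.03 to 11.81. Of 25 MHC genes 17 were lower and none was higher, and of 30 interferon genes 23 were lower and 1 was higher. Class II genes are expressed by macrophages and B cells, whose markers were measured on the same array, and their part in these values was not tested.

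Chemokine and cytokine genes had 5 higher and 16 lower of 30. Ccl24 and Ccl4, macrophage chemokines, were lower by at least 613-fold and 465-fold and Il6, an acute-phase cytokine, by at least 269-fold. Cx3cl1, a membrane-bound chemokine, was 24.1-fold higher in cultured Hepa1-6 and Ccl20, which draws CCR6-bearing cells, 21.5-fold higher. A pair of genes known to respond quickly to stress stood high on the LSEC array. Hspa1a, an inducible heat-shock protein, had a log2 signal of 16.95 there and 3.33 on the Hepa1-6 array, and Fos, an immediate-early factor, had 16.59 and 8.49. Handling and cell type cannot be told apart here.

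MicroRNAs were not measured on this array, but some are cut from the introns or exons of genes that were. By the RefSeq records 29 microRNA precursors lay within 24 genes higher in cultured Hepa1-6 and 69 within 65 lower genes, while 364 lay within 337 genes inside 8-fold. Of all genes kept 10.3% were higher and 11.9% were lower. The hosts below were chosen after their values were seen, because they carry the microRNAs that the study works with (miR-139 and miR-214) or well known clusters of cycling and endothelial cells. Capitals mark the seed, bases 2 to 8.
mmu-miR-106b-5p, host Mcm7: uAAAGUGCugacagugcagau
mmu-miR-93-5p, host Mcm7: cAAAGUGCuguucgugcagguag
mmu-miR-25-3p, host Mcm7: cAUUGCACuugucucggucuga
mmu-miR-139-3p, host Pde2a: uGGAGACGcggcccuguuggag
mmu-miR-139-5p, host Pde2a: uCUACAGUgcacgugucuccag
mmu-miR-214-3p, host Dnm3os: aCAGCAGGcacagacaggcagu
mmu-miR-199a-5p, host Dnm3os: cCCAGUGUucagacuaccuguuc
mmu-miR-126a-3p, host Egfl7: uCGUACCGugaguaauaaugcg

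The miR-106b and miR-93 strands share the seed AAAGUGC, and miR-25 has another. Their host Mcm7, a subunit of the replicative helicase, had a log2 signal of 10.99 on the LSEC array and 14.87 on the Hepa1-6 array, 14.6-fold higher in cultured Hepa1-6. Pde2a, a cyclic nucleotide phosphodiesterase gene that holds miR-139, had a log2 signal of 17.36 on the LSEC array and 10.78 on the Hepa1-6 array, 95.3-fold lower. Dnm3os, a noncoding transcript that holds miR-214 and miR-199a-2, had 8.67 on the LSEC array and 3.09 (dim) on the Hepa1-6 array, lower by at least 6.31-fold. Egfl7, an endothelial matrix protein gene that holds miR-126a, was 56.2-fold lower at a log2 signal of 11.76 in the line. These are host gene signals, and a mature microRNA can differ from its host.

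The TEC arrays, normalized with the 2 others over all 5, show where these genes stood in the TEC preparations. The paper states that some contamination by cancer cells cannot be avoided in this isolation, and it took cancer cell genes out of its TEC list. The part of cancer cells in the values below was not tested. Of the 2266 genes higher in cultured Hepa1-6, 85.6% were well above background on the array of TECs from Hepa1-6 tumors, 49.7% on that of TECs from HAK-1B tumors and 47% on that of TECs from KYN-2 tumors, against 96.1%, 89% and 87% of all genes kept. For the 2611 lower genes the shares were 96.2%, 92.5% and 90.9%. HAK-1B and KYN-2 are human lines, so a mouse probe reads their tumor cells only through cross-hybridization. The methods name C57BL/6 mice and nude mice (BALB/c nu/nu) and do not say which carried which tumor. Host strain, host genotype and tumor line therefore cannot be told apart on the TEC arrays. Afp had a log2 signal of 15.38 in the Hepa1-6 TECs, 6.21 in the HAK-1B TECs and 8.06 in the KYN-2 TECs on this scale. Sprr1a had 10.15 in the Hepa1-6 TECs and was not well above background in the HAK-1B and KYN-2 TECs. Clec4g had 14.26, 13.67 and 14.17 in the same order.

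Genes at the edge of the 8-fold rule show what it leaves out. Ugdh, which makes UDP-glucuronate, was just past the line with a log2 signal of 11.08 on the LSEC array and 14.08 on the Hepa1-6 array and counted, and Map7, a microtubule-associated protein gene, was 7.99-fold higher and not counted. On the other side Fcer1a, a chain of the IgE receptor, counted with a log2 signal of 6.16 on the LSEC array and 3.16 (dim) on the Hepa1-6 array, although its bound was only 1.11-fold. Of the genes called, 1682 higher and 1615 lower genes stayed past 8-fold with unmeasured levels at their bound, and 584 and 996 did not. Genes with more than 1 kept probe had all probes on 1 side of zero in 428 of 489 cases among higher genes and in 776 of 849 among lower genes. The share was 70.8% of all genes with more than 1 kept probe. Genes called were chosen for a large ratio at 1 of these probes, so a larger share among them is no independent check. All probes passed 8-fold in 329 and 454 of these cases.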

How the data were processed

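RNA from cultured Hepa1-6 cells and from LSECs was measured on 1 Agilent 60-mer array each, and samples were grouped by their titles. The labels name SV Total RNA isolation after TRIzol and the methods name NucleoSpin miRNA. The authors deposited linear intensities of all spots, background-subtracted and detrended within the array by Feature Extraction (10.7.1.1 per the file headers, 9.5.1.1 in the submitters' processing notes), and probe positions are on mm9. A table of quantile normalized intensities, also deposited by the authors, served as an alternative. No column of the authors' own comparisons was present in the files used.

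Control spots were left out, spots of a probe were averaged, and log2 values with no pseudocount were quantile normalized over the 2 arrays, as the methods describe for samples compared. Probes well above background on either array were kept, and a gene took its kept probe with the highest mean signal. A signal not well above background was replaced, for an "at least" fold, by the higher of its own value and the lowest signal well above background (log2 6.01 on the Hepa1-6 array and 4.57 on the LSEC array). No probe was saturated. Of all probes 44.6% were well above background on the Hepa1-6 array and 54.1% on the LSEC array, and precision is limited by the number of arrays. The quantile step was run on simulated data in which both arrays came from the LSEC profile and few probes were shifted, equally in each direction. That run does not cover a pair of arrays that differ as widely as these. Python 3.11.15, pandas 2.3.3, NumPy 2.4.6, Matplotlib 3.10.9, and R 4.3.3 with limma 3.58.1 for the normexp alternative, were used.

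The 34 gene lists, the comparison and its 8-fold rule were chosen with earlier results of these data known. Genes were named by a rule: the defining members of each list, up to 3 members past 8-fold with the largest ratio in each direction, the 10 largest and smallest ratios measured on both arrays, the 10 largest bounds each way, and the 2 genes nearest 8-fold on each side of it. Other genes named were chosen after their values were seen. Gene names are those of the array design. Some genes and motif results are not reported here. Alternatives were other scalings, background corrections, filters, probe summaries and folds, and the methods' rule of ratio and Z-score.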

Additional observations from a re-analysis of the deposited data

How the results depend on the processing

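With 1 array a side every value rests on both arrays, and array, slide, strain, culture and cell type cannot be told apart. The background correction moved the counts most among the normalizations tried. After normexp, 901 genes were at least 8-fold higher and 1456 lower, 895 and 1435 of them shared with the counts of 2266 and 2611, and the higher share of calls was 38.2% in place of 46.5%. Requiring a signal well above background on both arrays left 828 higher and 618 lower genes, a higher share of 57.3%. By the methods' rule (a 1.5 or 0.66 ratio and a Z-score past 2, in a window of 500 probes that was chosen here) 432 were higher and 947 lower, a higher share of 31.3%. At 4-fold the counts were 3734 and 4159, and at 16-fold 1302 and 1725. Scaling to the 75th percentile, quantile normalization over 5 arrays, the deposited table, leaving out flagged spots or lincRNA probes, no background filter and the median over probes gave 2075 to 2430 higher and 2437 to 2777 lower genes. Lists and named genes were read again under 5 alternatives: the 75th percentile, 5 arrays, normexp, the deposited table and flagged spots left out. Of the 34 list medians, those with an absolute log2 ratio of 1 or more kept their sign. Smaller medians were not checked for sign. None of the named genes past 8-fold turned direction. Normexp moved 33 of 262 named genes inside 8-fold, and the 262 include genes that were never past 8-fold and could not move. No paired analysis was possible because the groups hold 1 array each. Signal over background limits the folds of dim genes, of which 584 higher and 996 lower genes are below 8-fold at their bound; no replicate could be left out, and the causes of these shifts were not tested.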

Other observations

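Genes past 8-fold lay in 54 runs of at least 4 neighbours, 13 higher with 59 genes and 41 lower with 208. Chosen after their values were seen, the X-linked Magea genes, which are normally limited to testis and are known as cancer-testis antigens, formed a run on the higher side. Magea6 had a log2 signal of 3.17 (dim, not well above background) on the LSEC array and was at least 43.0-fold higher in cultured Hepa1-6, and Magea3 was at least 14.2-fold higher. Trap1a, a tumor antigen gene also on chromosome X, was at least 12.2-fold higher, and Rhox2c, of an X-linked homeobox cluster of reproductive tissue, at least 23.3-fold higher. Of the genes kept on chromosome X 14.7% were higher, against 10.3% of all genes. The Magea and Rhox genes include close copies, and their probes may share signal.

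Of 18 genes kept of the Hox clusters 11 were at least 8-fold lower, 3 at least 8-fold higher and 4 neither. Over all genes kept 11.9% were lower and 10.3% were higher. Among the Hox genes Hoxb4, Hoxb5 and Hoxa5, all on the lower side, were chosen after their values were seen. Hoxb4 had a log2 signal of 12.47 on the LSEC array and 3.61 (dim) on the Hepa1-6 array, lower by at least 88.3-fold, and Hoxb5, its neighbour, was lower by at least 27.1-fold. Hoxa5 was lower by at least 12.3-fold. These factors set position along the body axis.

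In the deposited table of normalized intensities every column had a median of 42.96, and the log2 values correlated across probes with the scanner signals of the same array at 0.9915 for cultured Hepa1-6 and 0.9982 for LSECs.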
